A study of Mus musculus with 36 samples.

Results

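The tissue kallikreins and the clade B serpins are 54 of the 21705 genes in the deposited expression table, chosen by symbol: 27 genes whose symbol begins with Klk and a digit, and 27 whose symbol begins with Serpinb and a digit. In 36 libraries from mouse bladder tumours and cell lines, 22 of the 54 never exceeded 10 deposited units, and 25 reached a group mean of 100 units or more in at least 1 group.

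Kallikreins are secreted serine proteases made as inactive precursors and switched on by other proteases. In the outer layers of skin and other stratified epithelia, Klk5, Klk7 and Klk14 cleave the proteins that hold flattened cells together, corneodesmosin, desmoglein 1 and desmocollin 1, so that the cells are shed, and the inhibitor encoded by Spink5 holds these proteases in check. Clade B serpins lack a classical secretion signal and act mostly inside cells, where they trap serine or cysteine proteases with an exposed reactive loop. Serpinb9 blocks granzyme B, the killing protease of lymphocytes, Serpinb2 encodes plasminogen activator inhibitor 2, Serpinb5 encodes maspin, and the Serpinb3 genes are the mouse counterparts of the human squamous cell carcinoma antigens. Normal urothelium is a transitional epithelium, and bladder tumours can take on features of stratified squamous epithelium.

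The UPPL mice carry Upk3a-CreERT2, p53f/f and Rosa26LSL-Luc, so that the recombinase is driven from the promoter of a uroplakin of the umbrella cells, and are labelled untreated. The BBN mice have the genotype Ctrl and were treated with N-butyl-N-(4-hydroxybutyl)nitrosamine, a bladder carcinogen. There were 9 UPPL and 11 BBN primary tumours. A further 10 tumours grew from cell lines, 4 from UPPL1541 (labelled with the UPPL genotype), 2 from BBN963 and 4 from MB49 (both labelled Ctrl and untreated). The 6 cultures, all labelled Ctrl and untreated, were 1 each of UPPL1541, BBN963 and MB49, and 3 named KT1044, KT1970 and KT1975, a name the labels do not explain. Each line is 1 line, so its tumours are not independent lines, and the host and the site of growth are not given in the sources used here. Nothing in the labels says how far replicate tumours are independent, and p-values measure only the spread between these samples.

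Values are in deposited units, which are gene estimates scaled so that the upper quartile of each library's values above 0 is 1000. They are not divided by gene length, so each gene is compared only with itself. The libraries totalled 9290000 to 17900000 reads, and a single read was worth 0.7856 to 1.456 units. The low values of the cultures go down to 1 read as the commonest, whereas in tumours the commonest lay at 2 to 19 reads, and an entry of 0 is correspondingly coarser there. For a gene listed at 0 in a whole group, a pairwise comparison gives a lower bound in place of the fitted fold change, and a median over members is given as fitted and, where it differs, with such genes at their bound. The bound was taken against 3 reads per library, or against the library's commonest low value where that was more reads; these bounds cover counting error only. Trp53, the floxed gene, lay between 30.41 and 158.2 units in the 14 UPPL libraries, including 50.42 in the UPPL1541 culture whose genotype label reads Ctrl, and at 401 or above in the other 22. The primary tumour UPPL1694 stood apart with Krt5, the basal keratin, at 10615 units against at least 77502 in the other UPPL primary tumours. The tests that it enters are also given without it.

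By gene order in RefSeq (GRCm38.p6), the 27 kallikreins lie on chromosome 7, with 10 protein-coding genes, Klk14 to Klk5, side by side. Of the serpins, 12 lie on chromosome 1 and 15 on chromosome 13. Promoters were read from the RefSeq promoter table for 51 of the 54 members, as the 250 bases before each start site. These are reference sequences of another build than the mm9 named for the files, and no library was sequenced there. The letters TGANTCA, searched on both strands (the motif is its own reverse complement), include the binding site of the AP-1 factors, TGAGTCA. They occur in 7 of 51 members (13.7%) and in 2113 of 27025 genes (7.82%). All 7 are among the 11 chromosome 1 serpins with a promoter in the table, Serpinb5, Serpinb12, Serpinb11, Serpinb7, Serpinb2, Serpinb10-ps and Serpinb8, and none of 26 kallikreins or 14 chromosome 13 serpins holds them. The stricter TGAGTCA was found in Serpinb7 and Serpinb8 only, 2 of 51 members (3.92%) against 5.16% of all genes. The letters AACCNGTT of the GRHL factors, which act in epithelia, were found in 1 of 51 members (1.96%), Klk1b11, against 2.0% of all genes. The following promoters are shown because they hold the matches of the neighbouring serpins whose levels are described below, beside Klk8, a kallikrein described below that holds none. Capitals mark TGANTCA, and each runs 5′ to 3′ along the plus strand: Serpinb7 at chr1:107422439-107422688, Serpinb8 at chr1:107589756-107590005, Serpinb11 at chr1:107362064-107362313 and Klk8 at chr7:43797327-43797576.
Serpinb7: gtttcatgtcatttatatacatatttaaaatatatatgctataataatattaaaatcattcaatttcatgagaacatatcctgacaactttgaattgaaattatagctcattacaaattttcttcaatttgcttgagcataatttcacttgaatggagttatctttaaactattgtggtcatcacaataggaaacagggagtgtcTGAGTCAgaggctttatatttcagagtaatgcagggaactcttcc
Serpinb8: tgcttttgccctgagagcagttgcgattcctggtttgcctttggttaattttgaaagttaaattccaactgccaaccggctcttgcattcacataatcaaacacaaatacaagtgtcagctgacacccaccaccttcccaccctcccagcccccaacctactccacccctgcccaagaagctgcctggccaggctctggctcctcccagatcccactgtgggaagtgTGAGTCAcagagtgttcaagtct
Serpinb11: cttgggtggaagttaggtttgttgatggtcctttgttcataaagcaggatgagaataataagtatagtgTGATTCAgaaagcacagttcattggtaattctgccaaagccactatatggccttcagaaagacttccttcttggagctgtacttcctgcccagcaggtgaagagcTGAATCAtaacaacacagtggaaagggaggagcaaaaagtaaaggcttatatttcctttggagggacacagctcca
Klk8: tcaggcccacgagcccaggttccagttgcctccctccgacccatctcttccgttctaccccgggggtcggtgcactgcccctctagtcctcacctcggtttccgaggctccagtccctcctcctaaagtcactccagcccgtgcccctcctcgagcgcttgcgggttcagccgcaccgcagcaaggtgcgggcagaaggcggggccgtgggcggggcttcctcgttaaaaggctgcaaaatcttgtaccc

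The match begins 45 bases before the start site in Serpinb7, 23 in Serpinb8, and 181 and 76 in Serpinb11. A match is a run of letters and shows no binding.

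The Serpinb3 genes are near copies of each other, which bears on how reads can be assigned to them. All of them hold the TATA box letters TATAAA, on either strand, as do 7 of the 11 chromosome 1 serpins, 9 of 51 members (17.6%) and 14.3% of all genes, and 0 of the 10 genes Klk5 to Klk14. The last 100 bases before each start site are shown on the minus strand on which these genes lie, with TATAAA or its reverse complement in capitals: Serpinb3a at chr1:107052304-107052403, Serpinb3b at chr1:107161115-107161214, Serpinb3c at chr1:107278372-107278471 and Serpinb3d at chr1:107083481-107083580.
Serpinb3a: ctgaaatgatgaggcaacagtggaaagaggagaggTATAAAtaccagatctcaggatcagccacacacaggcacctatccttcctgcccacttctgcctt
Serpinb3b: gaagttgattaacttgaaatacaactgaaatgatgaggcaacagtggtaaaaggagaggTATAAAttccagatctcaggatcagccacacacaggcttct
Serpinb3c: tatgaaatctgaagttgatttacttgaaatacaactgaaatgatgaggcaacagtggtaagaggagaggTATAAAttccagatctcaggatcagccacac
Serpinb3d: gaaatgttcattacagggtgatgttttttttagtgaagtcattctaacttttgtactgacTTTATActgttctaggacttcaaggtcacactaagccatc

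The letters begin 65, 41 and 31 bases before the start site in Serpinb3a, Serpinb3b and Serpinb3c, and 40 bases before it in Serpinb3d, where they read on the opposite strand. In the reference transcripts the coding sequences of Serpinb3a and Serpinb3b, each 1164 bases, are 92.6% identical without gaps. The 60 bases at coding positions 1012 to 1071, which encode the hinge and reactive loop that meets the target protease, differ at 4 positions, in capitals in Serpinb3b.
Serpinb3a: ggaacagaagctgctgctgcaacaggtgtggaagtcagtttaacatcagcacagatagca
Serpinb3b: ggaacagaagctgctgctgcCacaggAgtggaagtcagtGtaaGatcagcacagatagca

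Of the 50-base words in the reference transcripts, 85.0% of those of Serpinb3a, 85.3% of Serpinb3b and 86.6% of Serpinb3d occur in no other gene, against 100% for Klk5 to Klk13 and 99.6% for Klk14. For Serpinb9e the share is 71.6% and for Serpinb9f 21.3%. Levels of these serpin copies are therefore uncertain where reads could be split between them. The words come from GENCODE vM21 transcripts and not from the annotation used to make the table.

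The kallikreins that were expressed were the 10 neighbours Klk5 to Klk14. The other 17, among them Klk1, which releases kinins from kininogen, the Klk1b genes of rodent glands, Klk4 and Klk15, gave 7 values above 0 of 612, and the highest was 22.89 units, for Klk1 in MB49 tumour 1. Never above 10 units were Klk4, Klk15, Klk1b1, Klk1b3, Klk1b4, Klk1b5, Klk1b7-ps, Klk1b8, Klk1b9, Klk1b11, Klk1b16, Klk1b21, Klk1b22, Klk1b24 and Klk1b26. Markers of prostate and seminal vesicle, where some of these genes are made, summed to at most 32.03 units in any library.

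**Figure D1:**
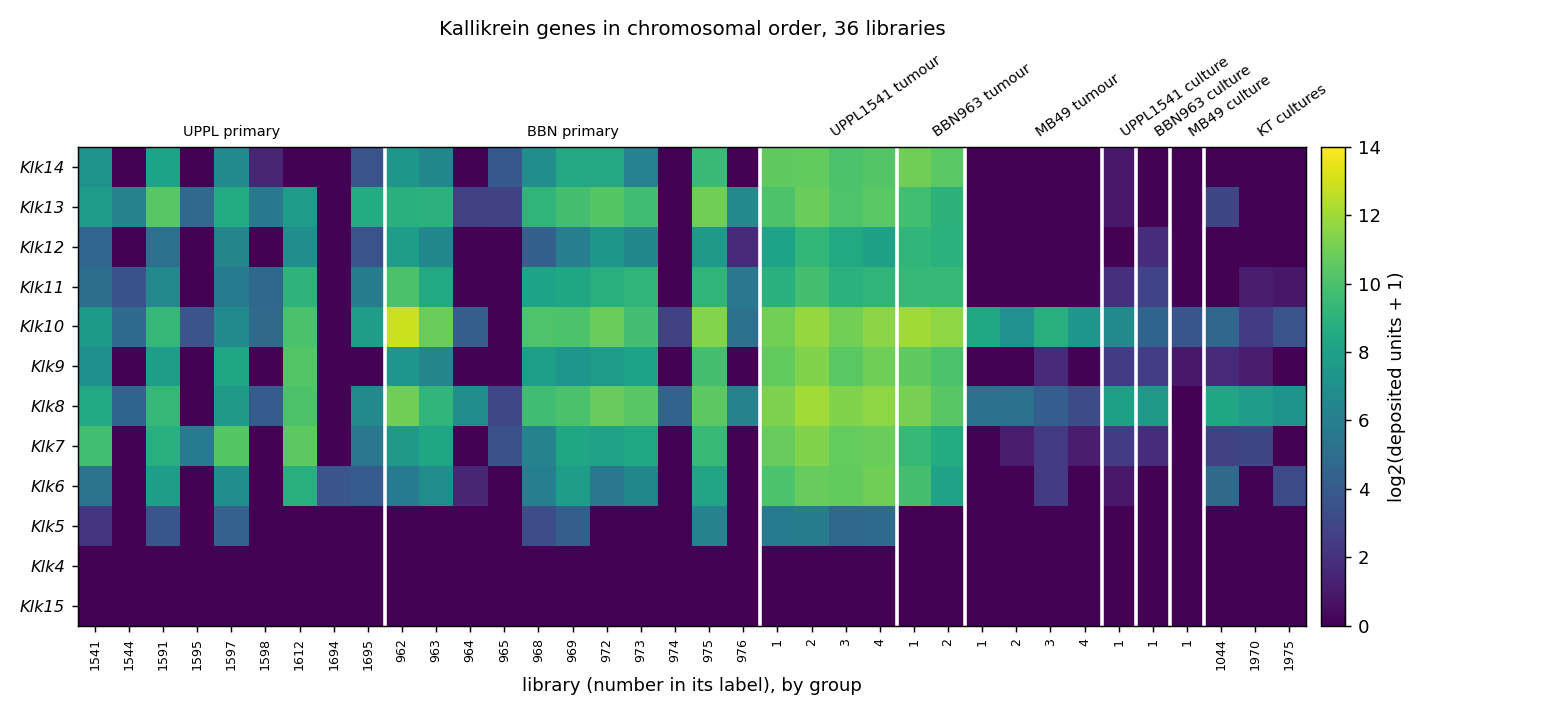
Levels of Klk14 to Klk5 with their neighbours Klk4 and Klk15, in chromosomal order (rows), in the 36 libraries (columns, grouped by model and by primary tumour, line-derived tumour or culture), as log2(deposited units + 1). The UPPL1541 and BBN963 tumours are bright across the block, the MB49 tumours and the cultures are dark apart from Klk8 and Klk10, and primary tumours are bright or dark as whole columns.

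In tumours grown from the UPPL1541 line, all 10 reached 10 units in each of the 4 tumours, and in BBN963 tumours 9 did in both. In MB49 tumours 1 or 2 did, and in the cultures 1 to 3. Klk8, a trypsin-like protease of epidermis also called neuropsin, was at 2428, 4333, 2613 and 3133 units in the UPPL1541 tumours, 2213 and 1338 in the BBN963 tumours, and 36.42, 33.67, 17.06 and 8.16 in the MB49 tumours. Each UPPL1541 tumour was above both others' ranges, and both BBN963 tumours were above every MB49 tumour. Klk10, first described as a gene of normal epithelial cells, was at 2091, 3464, 2038 and 3038 units in UPPL1541, 4062 and 3154 in BBN963, and 336.1, 136.9, 453.1 and 163.2 in MB49 tumours. All UPPL1541 and BBN963 tumours lay above every MB49 tumour, and both BBN963 tumours lay within or above the UPPL1541 range.

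Among the proteases of cell shedding, Klk7 was at 1713, 2571, 1622 and 1759 units in UPPL1541, 666.2 and 395.8 in BBN963 and at most 4.26 in MB49 tumours. Klk14, which can activate other kallikreins, was at 1520, 1601, 1039 and 1217 in UPPL1541 and 2022 and 1388 in BBN963 tumours, and was listed at 0 in all 4 MB49 tumours. Klk5, at the head of the activation cascade in skin, was at 54.96, 61.28, 24.83 and 28.58 units in UPPL1541 tumours and was listed at 0 in the BBN963 and MB49 tumours. Klk5 was thus the 1 gene of the block that BBN963 tumours lacked in the file.

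Klk6 was at 1039, 1722, 1592 and 1996 units in UPPL1541 and 920.1 and 264.7 in BBN963 tumours, and was above 0 in 1 MB49 tumour, at 4.26. Klk9 was at 1594.98, 2588, 1386 and 1942 in UPPL1541 and 1522 and 1029 in BBN963 tumours, and Klk13 at 1090, 1789, 1135 and 1362 against 873.1 and 522.1. Klk11 was at 479.1, 950.5, 495.4 and 576.4 in UPPL1541 and 661.2 and 664.2 in BBN963 tumours, and Klk12 at 272.4, 621.9, 363.8 and 252.5 against 593.9 and 493.9. Among the UPPL1541 tumours, tumour 2 had the highest value of every gene of the block except Klk6, which was highest in tumour 4.

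**Figure D2:**
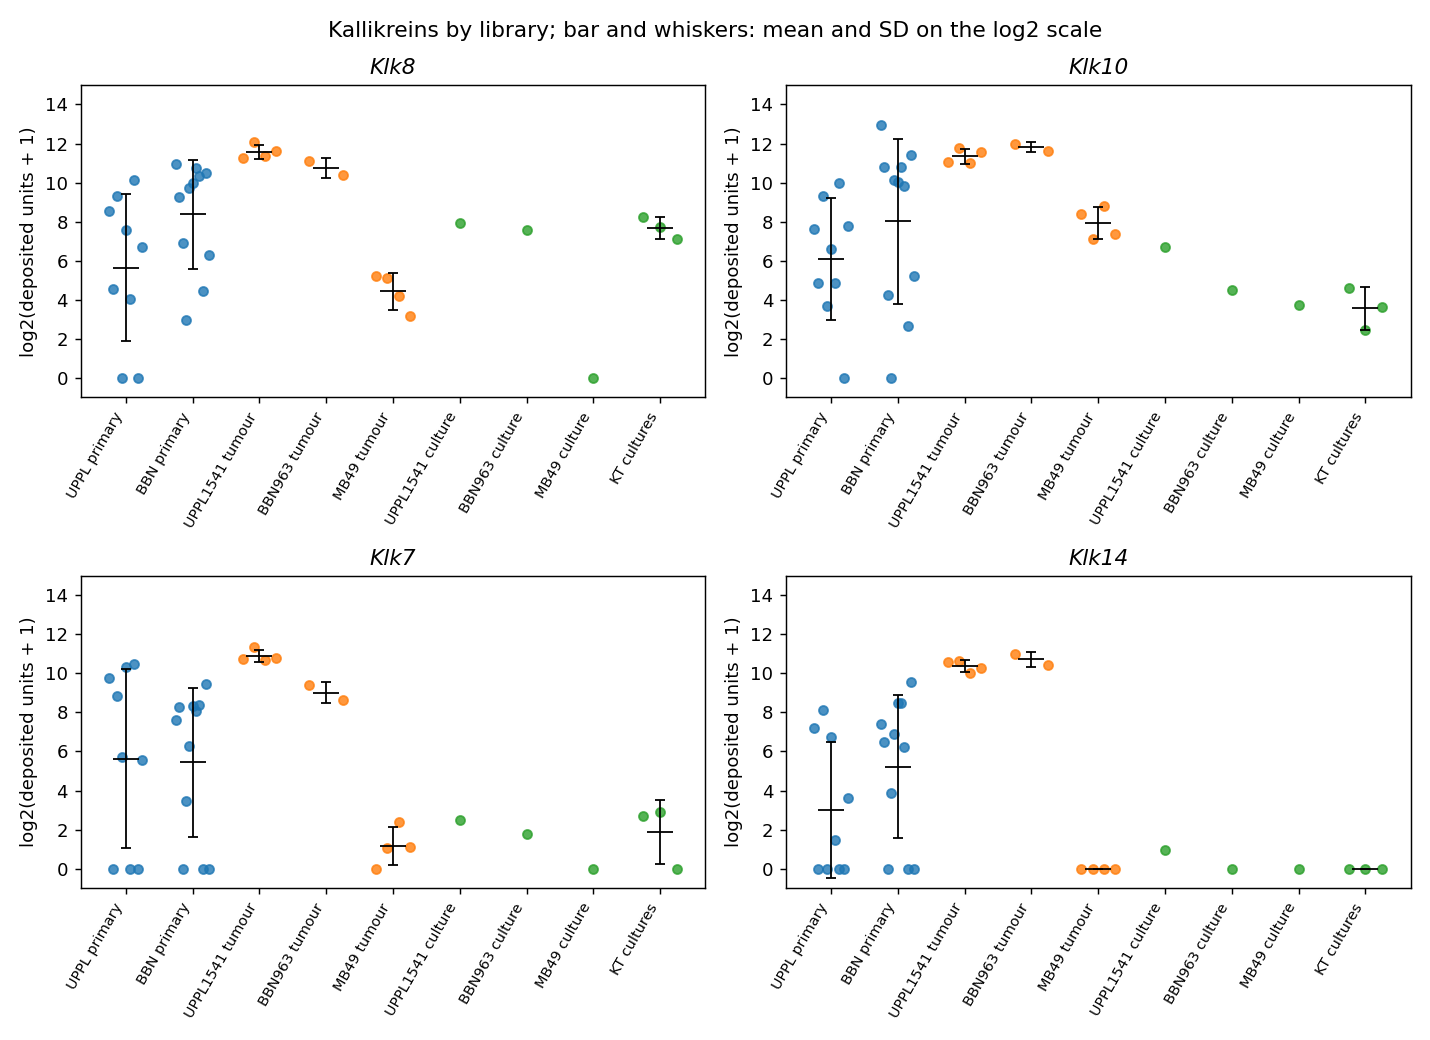
Klk8, Klk10, Klk7 and Klk14 in every library (points), as log2(deposited units + 1), by the 9 groups on the horizontal axis; bars and whiskers are the mean and SD on that scale. Klk8 and Klk10 keep values above 0 in most cultures, whereas Klk14 is at most 0.93 units in any culture and is listed at 0 in every MB49 library.

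In the cultures Klk8 was at 244.5 units in UPPL1541, 187.2 in BBN963, 0 in MB49 and 298.0, 211.1 and 137.8 in the KT lines. Klk10 was at 101.8, 21.9, 12.53 and 23.32, 4.4 and 11.56 in the same order. The other 8 genes of the block were at most 27.76 units in any culture, a value of Klk6 in KT1044. The summed level of the 10 genes was 361.2 units in the UPPL1541 culture against 12280 to 19700 in its tumours, and 224.9 against 9250 and 13530 for BBN963.

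Primary tumours varied far more than the tumours of 1 line. The summed level of the 10 kallikreins ran from 11.99 to 6092 units in UPPL primary tumours, with a median of 860.9, and from 26.22 to 12160 in BBN primary tumours, with a median of 3944. Of the 9 UPPL tumours 4 had 5 or fewer of the 10 genes at 10 units or more and 5 had 8 or more, and of the 11 BBN tumours 4 and 7 did. These limits were set after the values were seen. Klk8 had a lowest, median and highest value of 0, 104.0 and 1106 units in UPPL and 6.76, 833.2 and 2012 in BBN primary tumours. Klk10 had 0, 97.39 and 1003 in UPPL and 0, 1035 and 7879 in BBN tumours. Both models held tumours at or near 0, and their ranges overlapped.

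Klk7 had 0, 51.46 and 1427 units as lowest, median and highest value in UPPL and 0, 191.7 and 708.9 in BBN primary tumours. Klk13 had 0, 202.2 and 1313 in UPPL and 0, 512.1 and 1974 in BBN tumours, and Klk11 had 0, 32.3 and 549.2 and 0, 306.4 and 997.1. Klk14 had 0, 1.74 and 276.5 in UPPL and 0, 89.51 and 745.3 in BBN tumours. For each of these genes at least 1 primary tumour of each model was listed at 0. Klk9 had medians of 0 and 160.3 units, Klk6 of 15.3 and 52.86, Klk12 of 11.22 and 62.85, and Klk5 of 0 and 0, in UPPL and BBN tumours.

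The first of the chromosome 1 serpins in gene order is Serpinb5, which encodes maspin, a serpin of epithelial cells that does not inhibit proteases in the usual way. Serpinb5 was at 4455, 6481, 4378 and 4395 units in UPPL1541 tumours, 11306 and 11533 in BBN963 tumours, and 13.53, 21.32, 23.45 and 11.65 in MB49 tumours. The cultures held 1599 in UPPL1541, 6047 in BBN963, 0 in MB49 and 3776, 6028 and 6540 in the KT lines. Primary tumours held 3198, 5599 and 9727 as lowest, median and highest value in UPPL and 3642, 7069 and 9226 in BBN. Serpinb5 was thus high in every library except the 5 of MB49, and no primary tumour lacked it, unlike the kallikreins.

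Serpinb3a, which inhibits cysteine and serine proteases, was at 10190, 17317, 6317 and 7052 units in the UPPL1541 tumours, 198.0 and 90.69 in BBN963 tumours and 0 in the MB49 tumours. All 6 cultures were listed at 0, the UPPL1541 culture among them. In UPPL primary tumours its median was 0 and its highest value 676.1, in tumour UPPL1591, with the next at 17.29, and in BBN primary tumours it had 0, 147.7 and 929.3 as lowest, median and highest value. Its copy Serpinb3b was at 264.0, 273.8, 88.16 and 84.55 in UPPL1541, at most 22.84 in BBN963 tumours and at most 14.67 in a primary tumour. Serpinb3d was at 229.4, 663.6, 119.2 and 179.8 in the UPPL1541 tumours and was listed at 0 in all other 32 libraries.

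Serpinb12, expressed in stratified epithelia, was at 1616, 3542, 1208 and 1743 units in UPPL1541, 300.8 and 66.18 in BBN963 and at most 4.66 in MB49 tumours. It did not exceed 2.2 in any culture. Primary tumours had 0, 2.39 and 724.6 as lowest, median and highest value in UPPL, the highest again in UPPL1591, and 0, 59.7 and 471.7 in BBN. Serpinb11 was at 1398, 1977, 1469 and 1444 in UPPL1541, 590.1 and 1555 in BBN963 and 0 in all MB49 tumours. Unlike Serpinb3a and Serpinb12 it was above 0 in several cultures, with 291.3 in UPPL1541 and 94.38 in KT1044. Primary tumours had 0, 36.97 and 509.0 in UPPL and 15.37, 452.5 and 1574 in BBN.

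Serpinb2, plasminogen activator inhibitor 2, and its neighbours Serpinb10-ps and Serpinb8 were high in cultures as well. Serpinb2 was at 466.0, 688.4, 430.9 and 840.7 units in UPPL1541 tumours, 1706 and 1588 in BBN963 and 0, 59.48, 60.77 and 110.7 in MB49 tumours, and at 548.1, 1386 and 0 in the cultures of these lines and 2916, 2646 and 2959 in the KT cultures. The KT cultures thus exceeded every line-derived tumour. Serpinb10-ps was at 369.2, 322.0, 240.9 and 245.3 in UPPL1541, 629.4 and 539.2 in BBN963 and at most 4.49 in MB49 tumours, and at 354.8, 1870 and 0 in their cultures and 272.0, 960.4 and 1466 in KT. Serpinb8 was at 806.5, 767.9, 561.2 and 528.7 in UPPL1541, 769.0 and 518.4 in BBN963 and 35.38, 252.5, 140.7 and 106.1 in MB49 tumours. Its cultures held 435.1, 434.3 and 0, and 723.9, 916.4 and 1770 in KT.

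In primary tumours Serpinb2 had 0, 255.3 and 673.7 units as lowest, median and highest value in UPPL and 47.02, 646.5 and 4292 in BBN. Serpinb10-ps had 0, 180.6 and 855.0 and 114.9, 811.2 and 4303, and Serpinb8 had 7.99, 382.5 and 674.9 and 309.0, 564.1 and 1287. The lowest UPPL value of each was in tumour UPPL1694.

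Serpinb7, known as megsin, ran against the rest of the chromosome 1 cluster. It was at 111.3, 54.99, 546.9 and 303.0 units in MB49 tumours, 11.95, 15.65, 206.1 and 17.86 in UPPL1541 tumours and 0 in BBN963 tumours. All UPPL primary tumours were listed at 0, the highest BBN primary tumour was at 15.15 and the highest culture at 10.27. Serpinb13 and Serpinb3c were never above 10 units.

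**Figure D3:**
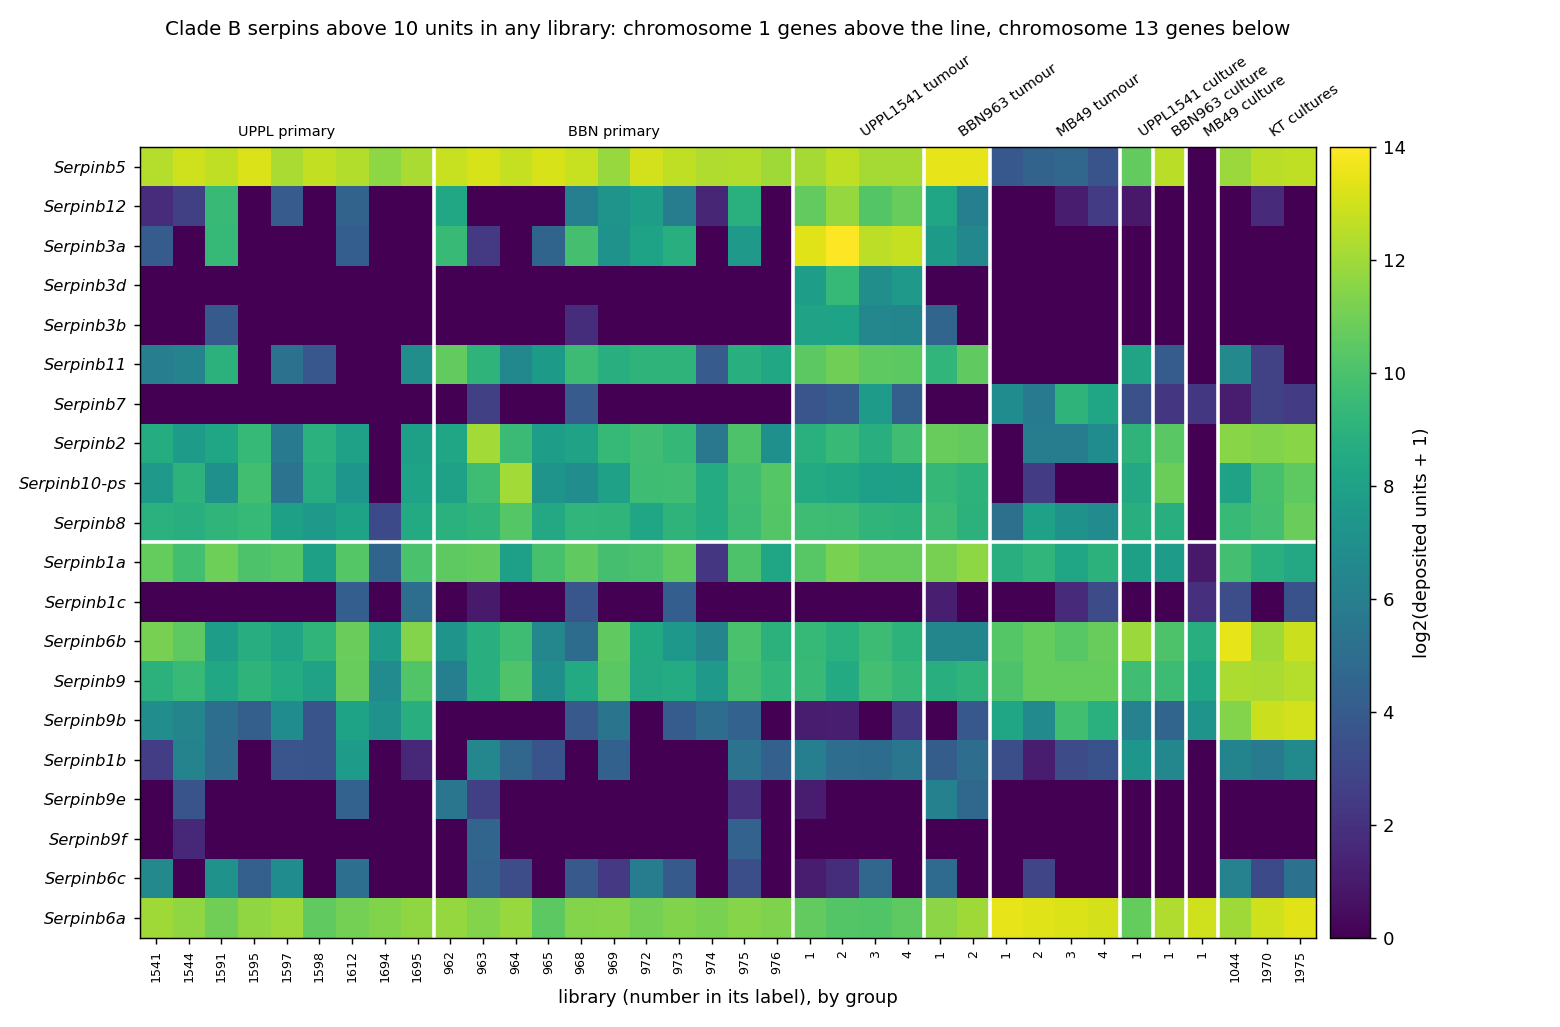
Levels of the clade B serpins that exceeded 10 deposited units in any library (rows; chromosome 1 above the line, chromosome 13 below), in the 36 libraries (columns by group), as log2(deposited units + 1). Most chromosome 1 serpins are low in MB49 tumours and at 0 or near it in the MB49 culture, whereas Serpinb6a, Serpinb6b and Serpinb9 on chromosome 13 are above 0 in every library.

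The chromosome 13 serpins are the intracellular inhibitors of leukocyte proteases. Serpinb6a, an inhibitor of cathepsin G, was at 11508, 10092, 9786 and 8871 units in MB49 tumours, 3020 and 4076 in BBN963 and 1605, 1228, 1170 and 1448 in UPPL1541 tumours, and the 3 lines did not overlap. The cultures kept the same order, with 8122 in MB49, 5125 in BBN963 and 1657 in UPPL1541, and held 4034, 7975 and 10774 in KT. Primary tumours had 1539, 3258 and 4039 as lowest, median and highest value in UPPL and 1438, 2750 and 3722 in BBN.

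Serpinb9, the inhibitor of granzyme B, was at 1099, 1626, 1672 and 1668 units in MB49, 442.9 and 560.1 in BBN963 and 728.8, 375.5, 896.5 and 641.9 in UPPL1541 tumours. In culture MB49 held 298.7, BBN963 776.2 and UPPL1541 828.2, and the KT lines held 4890, 4727 and 5483. MB49 was highest among the tumours and lowest among the cultures. Primary tumours had 108.9, 512.0 and 1723 as lowest, median and highest value in UPPL and 64.26, 397.5 and 1350 in BBN.

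Serpinb9b, a further gene of the Serpinb9 group, was at 311.1, 104.4, 872.1 and 466.2 units in MB49 tumours and at most 3.57 in UPPL1541 and 13.48 in BBN963 tumours. The KT cultures held 2698, 7508 and 8461, against 153.2 in MB49, 72.83 in UPPL1541 and 23.11 in BBN963 culture. Primary tumours had 11.32, 111.8 and 445.7 as lowest, median and highest value in UPPL and 0, 0 and 40.85 in BBN, and the 6 highest values were all of UPPL tumours while the 6 listed at 0 were all of BBN tumours. Serpinb6b was at 1251, 1630, 1317 and 1690 in MB49, 85.03 and 85.78 in BBN963 and 673.8, 482.4, 786.0 and 533.5 in UPPL1541 tumours. Its cultures held 441.3 in MB49, 1091 in BBN963, 3778 in UPPL1541 and 11537, 4037 and 7462 in KT. Primary tumours had medians of 579.8 in UPPL and 362.9 in BBN.

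Serpinb1a, an inhibitor of neutrophil elastase, was at 1320, 2292, 1727 and 1721 units in UPPL1541, 2249 and 3202 in BBN963 and 447.5, 589.2, 311.3 and 517.5 in MB49 tumours. The cultures held 252.1, 214.1 and 0.96 in the same order and 906.0, 468.7 and 346.7 in KT. Primary tumours had 21.98, 1089 and 1944 in UPPL and 3.62, 1027 and 1591.46 in BBN as lowest, median and highest value. Serpinb1b and Serpinb6c reached 202.1 and 142.2 units in an UPPL primary tumour without a group mean of 100 except Serpinb1b in the UPPL1541 culture, at 163.4. Serpinb1c, Serpinb9e and Serpinb9f reached at most 32.64, 69.8 and 22.9, and Serpinb6d, Serpinb6e, Serpinb9c, Serpinb9d and Serpinb9g were never above 10 units.

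**Figure D4:**
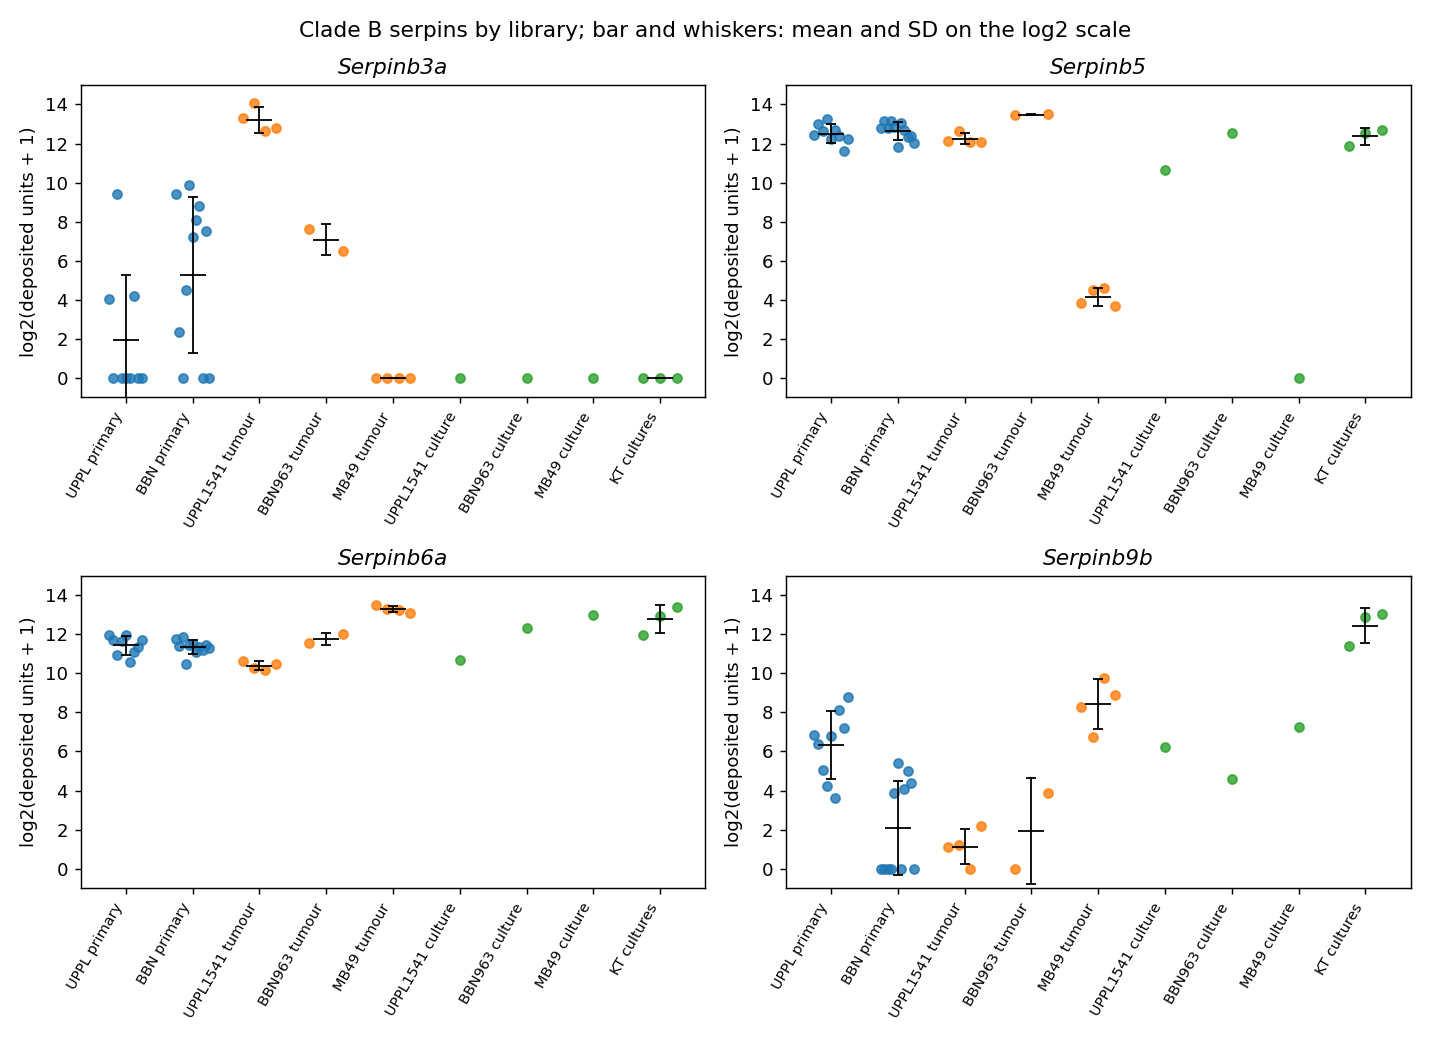
Serpinb3a, Serpinb5, Serpinb6a and Serpinb9b in every library (points), as log2(deposited units + 1), by the 9 groups on the horizontal axis; bars and whiskers are the mean and SD on that scale. Serpinb3a is far higher in UPPL1541 tumours than in the UPPL1541 culture, which is at 0, and Serpinb9b is highest in the KT cultures.

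Tests were run with limma on log2(value + 1) across all genes that reached 10 units in enough libraries, with Benjamini-Hochberg adjustment over all genes tested. In these bulk samples fewer cells of a type and less RNA per cell cannot be told apart. The 3 comparisons between line-derived tumours share groups, as do those with primary tumours, and so are not independent of each other.

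Between UPPL1541 and MB49 tumours nearly every tested member differed. All 10 kallikreins tested were higher in UPPL1541, and of 18 serpins 11 were higher and 5 lower. Apart from Klk8 and Klk10, the kallikreins were at most 4.26 units in MB49 tumours. They passed the filter through the tumours of the other lines and could not have been called lower. The same holds for the serpins at or near 0 in MB49 tumours, so these counts restate the levels above. Over all 14604 genes tested, 27.3% were higher and 22.6% lower. Klk8 averaged 3127 ± 857.6 units against 23.83 ± 13.5 (SD, n = 4 each), a log2 fold change of 7.15 (SE 0.416, limma adjusted p = 1.4e-07). Klk10 averaged 2658 ± 707.3 against 272.3 ± 149.4, a log2 fold change of 3.42 (SE 0.352, limma adjusted p = 1.4e-05). Klk7, Klk6 and Klk9 rose by 9.73, 9.99 and 10.4 on the log2 scale. MB49 tumours held at most 4.26 units of each, so these sizes depend on the pseudocount and are not comparable with the bounds below. Over the alternatives they ran from 7.36 to 10.1, 7.15 to 10.6 and 7.45 to 11.4. Against the MB49 tumours' floor Klk14 and Klk13 were both at least 238-fold higher, Klk11 at least 111-fold, Klk12 at least 66.7-fold and Klk5 at least 7.5-fold. The median log2 fold change of the 10 kallikreins was 9.48, or 7.46 with genes at their bound, against 0.0488 over all genes.

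Of the serpins, Serpinb3a was at least 1810-fold, Serpinb11 at least 278-fold, Serpinb3d at least 52.7-fold and Serpinb3b at least 31.4-fold higher in UPPL1541 than in MB49 tumours. Serpinb5 averaged 4927 ± 1036 against 17.49 ± 5.774 units (SD, n = 4 each), a log2 fold change of 8.09 (SE 0.231, limma adjusted p = 5.4e-10). Serpinb12, Serpinb10-ps, Serpinb2, Serpinb8, Serpinb1a and Serpinb1b rose by 9.98, 7.57, 4.52, 2.59, 1.93 and 2.56. Serpinb12 and Serpinb10-ps were at or near 0 in the MB49 tumours, and over the alternatives they ran from 7.38 to 10.5 and from 4.77 to 8.18. The 5 that were lower, all but 1 on chromosome 13, were Serpinb6a, Serpinb9b, Serpinb6b, Serpinb9 and Serpinb7. Serpinb6a averaged 1363 ± 201 against 10060 ± 1093, a log2 fold change of -2.89 (SE 0.144, limma adjusted p = 3.6e-08). Serpinb9b fell by 7.28, Serpinb6b by 1.26 and Serpinb9 by 1.24. UPPL1541 tumours held at most 3.57 units of Serpinb9b, and its log2 fold change ran from -8.04 to -4.94 over the alternatives. Serpinb7 had a log2 fold change of -2.57 (limma adjusted p = 0.044), its values overlapped between the lines, and it missed the threshold in 12 of 20 alternatives, with adjusted p between 0.0045 and 0.13. The median over the 18 serpins was 2.58.

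Cell type markers moved with this comparison. The summed level of 10 stratified epithelium markers was 174 to 659.9 units in MB49 tumours, with Krt1, Krt13 and Ivl at 0 in all of them, against 561900 to 887000 in UPPL1541 tumours, and 10 of 10 were higher there. All 7 macrophage markers and all 6 cytotoxic lymphocyte markers tested were lower in UPPL1541, the latter summing to 13.1 to 463.1 units against 1069 to 3038 in MB49. By contrast, 3 of 5 neutrophil and 4 of 6 fibroblast markers were higher in UPPL1541. Mast cell markers were higher in 1 and lower in 3 of 6, and luminal markers higher in 3 and lower in 2 of 6. The part of these cells in the values of Klk5 to Klk14 and of Serpinb1a, Serpinb6a, Serpinb6b, Serpinb9 and Serpinb9b was not tested. In the MB49 culture, where the cytotoxic markers summed to at most 6.662 units as in every culture, Serpinb6a was at 8122 units, Serpinb6b at 441.3, Serpinb9 at 298.7 and Serpinb9b at 153.2. The MB49 tumours held 8871 to 11508, 1251 to 1690, 1099 to 1672 and 104.4 to 872.1 units of these genes.

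BBN963 tumours differed from MB49 in the same direction for most members. Of 10 kallikreins 9 were higher and Klk5 was at 0 in both, and of 18 serpins 9 were higher and 5 lower, where 15.8% of all genes were higher and 26.1% lower. Here too the kallikreins other than Klk8 and Klk10 passed the filter through UPPL1541 or BBN963 tumours and could not have been called lower. Klk14 was at least 301-fold, Klk13 at least 123-fold, Klk11 at least 117-fold and Klk12 at least 96.1-fold higher. Klk8 rose by 6.32 on the log2 scale, Klk10 by 3.88 and Klk9 by 9.88, and Klk7 and Klk6 by 7.86 and 8.35. The sizes for Klk9, Klk7 and Klk6, at or near 0 in MB49 tumours, depend on the pseudocount. Over the alternatives they ran from 6.91 to 11.0, 5.5 to 8.41 and 5.53 to 9.25. Serpinb11 was at least 190-fold, Serpinb3a at least 25.5-fold and Serpinb9e at least 8.44-fold higher, and Serpinb5 rose by 9.33 (SE 0.282, limma adjusted p = 1.6e-09). Serpinb10-ps, Serpinb12, Serpinb2, Serpinb1a and Serpinb8 rose by 8.57, 6.27, 6.02, 2.56 and 2.54. Serpinb10-ps and Serpinb12, also at or near 0 in MB49 tumours, ran from 5.76 to 9.19 and from 3.77 to 7.35 over the alternatives. Serpinb7 was at least 14.5-fold lower, and Serpinb6b, Serpinb6a, Serpinb9 and Serpinb9b fell by 4.08, 1.51, 1.58 and 6.48. Serpinb9b was at 0 and 13.48 units in the BBN963 tumours, and its log2 fold change ran from -8.41 to -4.52 over the alternatives. Medians were 8.72 for kallikreins and 2.41 for serpins, or 6.80 and 2.14 with genes at their bound, against -0.24 over all genes. All 10 stratified epithelium markers were also higher and 7 of 7 macrophage markers lower in BBN963, and 1 of 6 cytotoxic lymphocyte markers was lower. Luminal markers were higher in 1 and lower in 3 of 6, neutrophil markers higher in 1 and lower in 2 of 5, and 1 of 6 fibroblast markers was higher. The part of these cells in the members' values was not tested.

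UPPL1541 and BBN963 tumours both expressed the kallikrein block. Higher in UPPL1541 were 2 of 10 kallikreins, near the share of all genes, of which 21.4% were higher and 7.37% lower. Klk6 and Klk13 did not pass here but did in some alternatives. Klk5 was at least 2.41-fold higher (limma adjusted p = 0.00059). Klk7 averaged 1916 ± 440.3 against 531 ± 191.2 units (SD, n = 4 and 2), a log2 fold change of 1.87 (SE 0.591, limma adjusted p = 0.036), which missed the threshold in 9 of 20 alternatives with adjusted p between 0.0016 and 0.19. No kallikrein was lower by limma, 0 at an unadjusted p under 0.05 and 0 by edgeR. Of 18 serpins 6 were higher and 3 lower. Serpinb3a rose by 6.12 (SE 0.491, limma adjusted p = 2.4e-05), Serpinb3b by 4.97, Serpinb12 by 3.71 and Serpinb6b by 2.82. Serpinb3d was at least 17.0-fold higher. Serpinb7, listed at 0 in BBN963, also passed (limma adjusted p = 0.010) but missed the threshold in 5 of 20 alternatives, with adjusted p between 0.0094 and 0.12. No bound is given for it, because its mean rests on UPPL1541 tumour 3, at 206.1 units against at most 17.86 in the other tumours of that line.

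Lower in UPPL1541 were Serpinb5 with a log2 fold change of -1.23 (SE 0.282, limma adjusted p = 0.0085), Serpinb6a with -1.38 and Serpinb9e with -5.16. Medians were 0.684 for kallikreins and 0.195 for serpins, and 0.323 over all genes. Of the markers, 6 of 6 luminal, 2 of 5 neutrophil, 2 of 7 macrophage and 2 of 6 fibroblast genes were higher in UPPL1541 and 4 of 6 cytotoxic lymphocyte genes lower, and their part in these values was not tested. The scaling moved this comparison: 74.4% of all genes called were higher in UPPL1541 as deposited, 49.8% after quantile normalization and 59.7% after median-of-ratios scaling. BBN963 had only 2 tumours, and without tumour 2 the members higher in UPPL1541 numbered 4 in place of 8.

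The 2 primary tumour models differed in few members. Of 9 kallikreins tested, limma called 0 in either direction, 0 at an unadjusted p under 0.05, and edgeR called 0. Among all 12818 genes, 5.71% were higher and 12.8% lower in UPPL. Klk8 averaged 270.4 ± 378 units in UPPL (SD, n = 9) and 829.2 ± 723.1 in BBN (SD, n = 11), a log2 fold change of -2.72 (SE 1.33, limma adjusted p = 0.15), and Klk10 had -1.92 (SE 1.53, limma adjusted p = 0.39). Klk7 had 0.19 (SE 1.71, limma adjusted p = 0.95). With standard errors of this size the comparison could not separate changes of several fold, and it does not show that the models are alike.

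Of 14 serpins 1 was higher and 1 lower. Serpinb9b averaged 137.5 ± 141.3 units in UPPL against 11.06 ± 14.58 in BBN (SD, n = 9 and 11), a log2 fold change of 4.27 (SE 0.927, limma adjusted p = 0.0035; 0.00033 to 0.016 over 9 alternatives). Serpinb11 averaged 90.73 ± 162.2 against 503.7 ± 419.6, a log2 fold change of -4.21 (SE 1.08, limma adjusted p = 0.010). By edgeR Serpinb11 did not pass, with -2.40 and an adjusted p of 0.084, the highest of 10 alternatives whose lowest was 0.0066. Medians were -1.39 for kallikreins, -0.0214 for serpins and -0.191 over all genes. Without tumour UPPL1694 the counts were again 1 and 1, and Klk8 had -2.02, Klk10 -1.16, Klk7 0.89, Serpinb9b 4.16 and Serpinb11 -3.69. Of all genes called, 30.9% were higher in UPPL as deposited, 50.1% after quantile normalization and 48.6% after median-of-ratios scaling. Luminal urothelium markers summed to 14920 to 97290 units in UPPL and 540.4 to 30940 in BBN tumours, with 6 of 8 higher in UPPL. Of the other markers, 4 of 7 macrophage and 1 of 6 fibroblast genes were lower in UPPL and 1 of 10 stratified epithelium genes was higher. Of 5 neutrophil genes 1 was higher and 1 lower. The part of these cells in the values of Serpinb9b and Serpinb11 was not tested.

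The UPPL1541 tumours, compared with UPPL primary tumours, were higher in 7 of 10 kallikreins and 6 of 20 serpins and lower in 2 serpins, where 20.5% of 15229 genes were higher and 5.98% lower. Klk14 rose by 7.36 (SE 1.80, limma adjusted p = 0.0034), Klk8 by 5.93 (SE 1.62, limma adjusted p = 0.0079), and Klk9, Klk6, Klk12 and Klk5 by 7.13, 6.51, 5.51 and 4.19. Klk10 rose by 5.25 (SE 1.87, limma adjusted p = 0.038), which missed the threshold in 9 of 17 alternatives, with adjusted p between 0.0045 and 0.089. Without tumour UPPL1694 it had 4.49 and an adjusted p of 0.060, and Klk14, Klk8, Klk9, Klk6, Klk12 and Klk5 had 6.99, 5.22, 6.67, 6.46, 5.14 and 4.05 and still passed. Klk7, Klk11 and Klk13 did not pass, with adjusted p of 0.063, 0.057 and 0.11. By edgeR on recovered reads 3 of the 10 kallikreins passed, Klk6, Klk8 and Klk14.

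Serpinb3a averaged 10220 ± 5021 units (SD, n = 4) against 78.77 ± 224.1 (SD, n = 9), a log2 fold change of 11.2 (SE 1.87, limma adjusted p = 8.4e-05). Where many primary tumours were listed at 0 the size depends on the setting: over the alternatives Serpinb3a ran from 6.85 to 11.5, Serpinb12 from 4.41 to 8.58 and Klk14 from 4.27 to 7.88, and all 3 passed in each. Serpinb12, Serpinb3b and Serpinb11 rose by 8.37, 6.82 and 6.47, Serpinb3d was at least 39.0-fold higher, Serpinb7 passed with all primary tumours listed at 0 and UPPL1541 tumour 3 far above the others of its line, and Serpinb9b and Serpinb6a fell by 5.21 and 1.04. Medians were 5.38 for kallikreins, 1.28 for serpins (1.48 with genes at their bound) and 0.366 over all genes. Of all genes called, 77.4% were higher as deposited, 48.8% after quantile normalization and 64.7% after median-of-ratios scaling. All 6 fibroblast and all 7 macrophage markers tested were higher in the UPPL1541 tumours, whereas 6 of 8 luminal markers were lower, and their part in these values was not tested.

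Between BBN963 and BBN primary tumours limma called 1 member. Over all genes 2.09% were higher and 5.67% lower. Serpinb9e averaged 47.77 ± 31.16 units (SD, n = 2) against 4.77 ± 13.31 (SD, n = 11), a log2 fold change of 4.53 (SE 1.24, limma adjusted p = 0.023), and missed the threshold in 4 of 16 alternatives, with adjusted p between 0.007 and 0.35. Of 10 kallikreins limma called 0, 3 were higher at an unadjusted p under 0.05, and edgeR called 0. No serpin was lower by limma, 0 at an unadjusted p under 0.05 and 0 by edgeR. Medians were 3.68 for kallikreins, 0.391 for serpins (1.42 with genes at their bound) and -0.167 over all genes. With a pseudocount of 10, Klk12 and Klk14 passed, with 3.57 and 4.48 (limma adjusted p = 0.048 and 0.045). With 2 BBN963 tumours a kallikrein median of this size gave no call, so the comparison does not show that these genes were unchanged. Of all genes called 26.9% were higher as deposited, 36.3% after quantile normalization and 38.6% after median-of-ratios scaling. Markers of luminal urothelium were lower in 5 of 8, and those of cytotoxic lymphocytes and mast cells higher in 4 of 6 each, and their part in the members' values was not tested.

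The difference between the 2 models' changes from primary to line-derived tumour was tested directly as an interaction. It passed for 0 of 10 kallikreins by limma, 1 at an unadjusted p under 0.05 and 0 by edgeR, so the larger number of calls for UPPL1541 is not shown to be a difference between models. It passed for 6 of 20 serpins, where 8.16% of all genes passed with a positive and 1.06% with a negative difference. Of the 6, 4 had a positive difference of UPPL less BBN change and 2 a negative one. The sign does not say which change was larger in size. These were Serpinb3d, Serpinb7, Serpinb3b and Serpinb3a, with limma adjusted p of 1.3e-07, 0.0052, 0.015 and 0.050 (just under the threshold before rounding), and Serpinb6a and Serpinb9e, with 0.015 and 0.039. Serpinb3a missed the threshold in 14 of 17 alternatives (adjusted p 0.01 to 0.25), Serpinb9e in 8 of 16 and Serpinb7 in 3 of 16. Serpinb3b missed it in 4 of 17 (adjusted p 0.00046 to 0.92) and Serpinb6a in 2 of 17 (0.003 to 0.12). Serpinb3d was listed at 0 outside the UPPL1541 tumours and entered the fit only through them. Its difference is therefore their level alone, and its small p-value rests partly on groups with no spread. It missed the threshold in 1 of 17, by edgeR, which called 0 serpins higher and 1 lower. Medians were 1.75 for kallikreins, 0.377 for serpins and 0.554 over all genes. Of all genes called 88.5% were higher as deposited, 53.4% after quantile normalization and 68.3% after median-of-ratios scaling.

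The tumours of the 3 lines, compared with their cultures with the line as a factor, were higher in 9 of 10 kallikreins and 6 of 16 serpins. Over all 14321 genes 20.1% were higher and 8.99% lower. Klk10 averaged 1894 ± 1517 units in the 10 tumours and 45.4 ± 49.05 in the 3 cultures (SD), a log2 fold change of 5.26 (SE 0.491, limma adjusted p = 4.7e-06). Klk8 rose by 3.78 (SE 0.419, limma adjusted p = 2.3e-05) and Klk7 by 5.49 (SE 1.03, limma adjusted p = 0.0017). Klk14, Klk6, Klk13, Klk12, Klk9 and Klk11 rose by 6.48, 6.25, 6.09, 5.14, 5.02 and 4.51, and Klk5 did not pass, with an adjusted p of 0.14. Apart from Klk8 and Klk10, these genes were at or near 0 in every MB49 library, so their change rests on UPPL1541 and BBN963. They were at most 6.08 units in the 3 cultures, so they passed the filter through the tumours and could hardly have been called lower.

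Serpinb1a rose by 4.82 (SE 0.665, limma adjusted p = 0.00016) and Serpinb5 by 2.30 (SE 0.446, limma adjusted p = 0.0021), and Serpinb12, Serpinb11 and Serpinb8 by 5.92, 2.57 and 2.75. Serpinb3a, listed at 0 in the cultures, was also higher (limma adjusted p = 0.0074). No member was lower by limma, and 0 were at an unadjusted p under 0.05, but edgeR called Serpinb6b lower with a log2 fold change of -2.21 and an adjusted p of 0.014. Medians were 5.20 for kallikreins and 2.03 for serpins, or 4.85 and 1.84 with genes at their bound, against 0.134 over all genes. Of all genes called 69.1% were higher as deposited, 45.4% after quantile normalization and 66.5% after median-of-ratios scaling.

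Each line had 1 culture, and 2 of them decided several calls. Without the UPPL1541 culture 9 members were higher in place of 15, the lost calls being Klk9, Klk11, Klk12, Klk13, Serpinb11 and Serpinb3a. Without the MB49 culture Serpinb6b and Serpinb9b were lower in tumours, with -3.10 and -3.98 (limma adjusted p = 1.9e-06 and 0.017), and Serpinb8 had 0.57. Serpinb5 and Serpinb1a, at 0 and 0.96 units in that culture, had 1.29 and 3.17 without it and still passed. Serpinb8 missed the threshold in 12 of 22 alternatives. Against its own single culture, with no test, Serpinb3a was at least 3650-fold, Klk12 at least 135-fold, Serpinb3d at least 106-fold, Serpinb3b at least 63.4-fold and Klk5 at least 15.1-fold higher in UPPL1541 tumours. In BBN963 tumours Klk14 was at least 467-fold, Klk13 at least 191-fold, Klk6 at least 162-fold, Serpinb12 at least 50.3-fold, Serpinb3a at least 39.5-fold and Serpinb9e at least 13.1-fold higher than in culture.

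**Figure D5:**
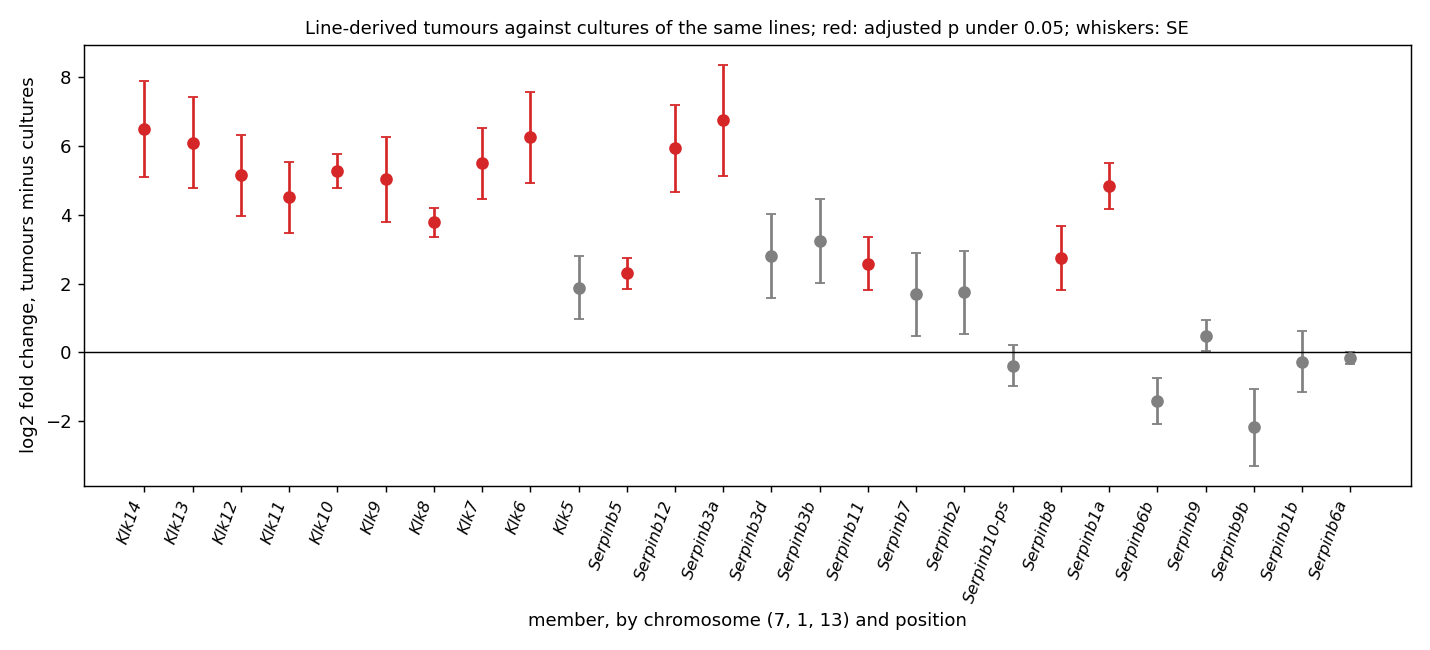
Log2 fold change of each tested member between line-derived tumours and cultures with line as a factor (points; whiskers are the standard error), red where the limma adjusted p is under 0.05 and grey where it is not. Every red point lies above 0, with Klk14 highest among the kallikreins at 6.48, Serpinb6b and Serpinb9b are the lowest grey points, and fitted values of genes at 0 in all cultures, such as Serpinb3a, rest on the pseudocount.

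Markers of other cell types moved with this comparison. Macrophage markers summed to 5951 to 26900 units in line-derived tumours and 172.5 to 560.2 in the 6 cultures, with 7 of 7 higher in tumours, and fibroblast, cytotoxic lymphocyte and mast cell markers were higher in 6 of 6, 6 of 6 and 6 of 6. Fibroblast markers summed to 73860 to 368500 in UPPL1541 tumours and 27.08 to 7865 in cultures. Of the neutrophil markers 4 of 5 were higher, though their sum in the UPPL1541 culture, 15620, was near that of its tumours, 15680 to 42420, with the defining Csf3r at 0 in culture. Of the stratified epithelium markers 5 of 10 were higher, with sums of 169900 in the UPPL1541 and 215500 in the BBN963 culture. Krt1, a keratin of differentiating layers, was at 98390 to 198344 in UPPL1541 tumours and 773.3 and 1423 in BBN963 tumours. The part of any of these cells in the members' changes was not tested. Salivary gland markers Prol1 and Smr2 were at 0 in every library.

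Genes that act with the kallikreins differed between the lines as well, and changes below are log2 fold changes. Inhibitors outside clade B were higher in UPPL1541 than MB49 tumours in 4 of 6 tested and lower in 0. Between primary models 0 of 4 passed in either direction. There Serpina3n, averaging 41.95 units in UPPL against 789.6 in BBN, had -4.04 (limma adjusted p = 0.058). Spint1 had 0.53 (limma adjusted p = 0.11). Spink5, the inhibitor of Klk5, Klk7 and Klk14, was at 10860, 17460, 10612 and 12740 units in UPPL1541, 5477 and 5021 in BBN963 and at most 2.24 in MB49 tumours. The UPPL1541 culture kept it at 10831, within the range of its tumours, although Klk7, Klk14 and Klk5 in that culture were at 4.67, 0.93 and 0. Tumours against cultures gave 0.91 for Spink5 with an adjusted p of 0.26, and 1 of 6 inhibitors was higher, Serpina3n by 5.33. Spint1, which blocks matriptase, averaged 2187 ± 383.4 against 319.7 ± 92.27 units (SD, n = 4 each), a log2 fold change of 2.80 (limma adjusted p = 5.9e-07), and Spint2 rose by 1.16. The other comparisons gave 1 of 6 higher against BBN963, 3 of 6 in BBN963 against MB49, 2 higher and 2 lower of 6 in UPPL1541 against UPPL primary tumours and 0 of 6 for BBN.

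Activators and substrates were higher in 7 of 8 tested in UPPL1541 against MB49 tumours and in 7 of 8 in BBN963 against MB49, and 0 of 8 differed between UPPL1541 and BBN963. St14, which encodes matriptase, averaged 2598 ± 229 against 44.3 ± 27 units (SD, n = 4 each), a log2 fold change of 6.04 (limma adjusted p = 2e-07). Cdsn, corneodesmosin and a substrate of Klk7, rose by 3.48 and Dsg1a by 10.9, while Prss8, Dsg1b and Dsc1 were listed at 0 in MB49 tumours. Between primary models 1 of 8 differed, Prss8, which encodes prostasin and averaged 915.8 ± 327 in UPPL against 470.9 ± 216.5 units (limma adjusted p = 0.022). St14 did not pass there, with 0.23. In UPPL1541 against UPPL primary tumours 4 of 9 were higher, Dsg1a, Il1b, Cdsn and Dsc1, and 2 were lower, Prss8 and F2rl1. Tumours exceeded cultures in 4 of 8, with Il1b by 9.20, Dsg1b by 6.36 and Dsc1 by 5.69 and Dsg1a at 0 in cultures, whereas St14 was high in culture, at 8493 units in UPPL1541 and 6352 in BBN963.

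Of the kinin system, through which Klk1 acts, few genes were measured. Kng1, kininogen, was at 0 in every library and Kng2 at most 8.53 in the line-derived ones. Bdkrb2, a kinin receptor, was lower in UPPL than BBN primary tumours by 2.68 (limma adjusted p = 0.037), 1 of 2 tested, and 0 of 4 differed between UPPL1541 and MB49 tumours. Bdkrb1, the other kinin receptor, was higher in UPPL1541 than BBN963 tumours by 4.69, 1 of 4. In UPPL1541 against UPPL primary tumours 3 of 4 were higher, Bdkrb1 by 4.34, Bdkrb2 by 3.19 and Ace, which degrades kinins, by 3.03. Ace was also higher in tumours than cultures by 5.41, 1 of 4.

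Proteases that clade B serpins trap were higher in 1 and lower in 4 of 8 in UPPL1541 against MB49 tumours, among them Gzmb with a log2 fold change of -5.60 and Plat with -1.31, while Plau and Ctsl did not pass, with 0.34 and -0.35. Between primary models 2 of 7 were lower in UPPL, Ctss with an adjusted p of 0.00063 and Casp1 with -3.92. Tumours exceeded cultures in 5 of 8, with Casp1 by 5.06 and Ctss at 0 in cultures, and Ctsl was lower, with -1.24. Of the plasminogen system, the target pathway of Serpinb2, 1 gene was higher and 5 of 7 lower in UPPL1541 against MB49 tumours, among them Plaur with -2.15, S100a10 with -2.45 and Anxa2 with -1.47. Between primary models 1 of 7 was lower in UPPL, Serpine2 with -2.40, and tumours against cultures gave 1 higher and 1 lower, Plaur with -1.13. Plau and Plat belong to both lists. These lists stand beside the shares of all genes given for each comparison above, and nothing particular to a list is read from them.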

How the data were processed

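RNA was extracted with RNeasy columns and sequenced from TruSeq Stranded mRNA libraries, per the labels' protocols. The submitters' processing notes name mm9, Picard 1.64, SAMtools and RSEM without their roles. The authors deposited 1 table of 21705 genes in 36 libraries, whose unit is a gene signal from RSEM scaled in each library so that the upper quartile is 1000 (998.9 to 1000 here). Values were whole multiples of 1 read for 92% to 96.3% of those above 0 (tolerance 0.02 reads), in 27 of 36 columns closely enough to be checked as recovered reads. Recovered reads per library totalled 9290000 to 17900000.

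Genes at 10 units or more in at least 9 libraries (primary tumours), 2 (line-derived and 4-group fits) or 3 (cultures) were fitted with limma 3.58.1 (R 4.3.3) with a variance trend on log2(value + 1), and an adjusted p under 0.05 was called. A fitted fold change is a difference of mean log2(value + 1), not of log2 means, so for genes with values of 0 its size depends on the pseudocount of 1. Members that passed and averaged at least 100 units in the higher group were named, the 8 with the largest change with every library's value, others by level or count. Of each list of related genes the first 2 were named, with at most 2 more by lowest adjusted p. Alternatives were another pseudocount (10), filter (none, 100), scaling, array weights, no variance trend, edgeR 4.0.16 on recovered reads, and leaving out libraries; leaving out UPPL1694 was chosen after seeing the data. The fits were first tested on simulated data. Members and lists were chosen with earlier results of these data known. KT columns carry another prefix in the file and were matched by line number. One further allele of the UPPL genotype label is not reported here.

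Same-numbered line-derived tumours did not deviate together (8 pairs, r from -0.093 to 0.066), so numbers were not taken as pairs.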

Additional observations from a re-analysis of the deposited data

Results flagged for a closer look

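In groups of 4 to 10 samples, 1 library stood apart from its group by Dixon's test in 16 of 65 gene and group pairs over 25 members examined. The limits are set to flag about 1 in 20 for normally distributed values. Where all libraries but 1 were at 0 the flag was certain, as for Klk6, Klk9 and Serpinb10-ps in MB49 tumours and Serpinb3b in UPPL primary tumours. The 16 cannot therefore be set against that rate. UPPL1694 was the lowest UPPL primary tumour for Serpinb1a at 21.98 units, Serpinb8 at 7.99, Serpinb2 at 0 and Serpinb10-ps at 0. UPPL1591 was the highest for Serpinb12 at 724.6, Serpinb3a at 676.1 and Serpinb3b at 14.67. Among UPPL1541 tumours, tumour 2 was high for Serpinb5 at 6481 and Serpinb11 at 1977, and tumour 3 for Serpinb7 at 206.1. Among MB49 tumours, tumour 3 was high for Klk6 at 4.26 and Klk9 at 2.13, tumour 2 was high for Serpinb10-ps at 4.49 and low for Serpinb1b at 1.12, and tumour 1 was low for Serpinb2 at 0 and Serpinb9 at 1099.

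The change from primary tumours to tumours of the 1 line of each model, UPPL1541 or BBN963, differed by the interaction term in limma for 6 serpins. With 1 line per model, a difference between lines and one between models cannot be told apart. Of these 6 calls 0 held in every alternative run, and edgeR called 0 higher and 1 lower. The difference of the log2 changes was 9.41 for Serpinb3a, 4.70 for Serpinb3b, 7.91 for Serpinb3d, 5.53 for Serpinb7, -1.47 for Serpinb6a and -5.14 for Serpinb9e. Serpinb3d and Serpinb7 were listed at 0 in whole groups, so the size of their fitted difference rests on the pseudocount.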

How the results depend on the processing

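Of 99 calls of members over the 8 comparisons, 72 held in every alternative run that tested the gene, 27 were lost in at least 1, and 0 changed direction. A run in which a stricter filter left the gene untested was not counted as a loss. Counts of members called stayed within 1.5 times in 258 of 286 alternative values and moved in 28. Among primary tumours the count higher in UPPL was 0 with a filter at 100 units and the count lower 0 by edgeR. For BBN963 against BBN primary tumours the count higher was 3 with a pseudocount of 10, 2 with array weights, and 0 with a filter at 100 or without the 5 libraries with a commonest low value of at least 10 reads. For the difference between models, the count higher was 1 with a filter at 100, 1 after quantile normalization, 0 by edgeR and 2 without those libraries, and the count lower was 1 with a filter at 100, 4 with array weights, 1 by edgeR and 0 without those libraries. For tumours against cultures, 1 was lower after quantile normalization, with array weights or by edgeR. With a filter at 100 units Serpinb9b was not tested between primary tumours, nor Serpinb9e between BBN963 and BBN primary tumours, so those counts of 0 are of genes left out. The cause of the other moves was not tested.

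Leaving out each line-derived tumour or culture in turn (of the primary tumours only UPPL1694 was left out alone) gave 21 to 21 higher and 4 to 5 lower for UPPL1541 against MB49 tumours, 16 to 19 and 5 to 5 for BBN963 against MB49, 4 to 9 and 2 to 4 for UPPL1541 against BBN963, 12 to 13 and 2 to 2 for UPPL1541 against primary tumours, 0 to 1 higher for BBN963 against primary tumours, 2 to 3 and 0 to 1 for the difference between models, and 9 to 16 and 0 to 2 for tumours against cultures. With the tumour number as a replicate block the counts were 21 and 5, 7 and 3, and 18 and 5 for the 3 comparisons of line-derived tumours, and Klk7 against BBN963 was lost (1.65, limma adjusted p = 0.13, within 0.0016 to 0.19 over its alternatives). Without UPPL1694 the counts were 1 and 1 for primary tumours, 12 and 2 for UPPL1541 against them and 3 and 3 for the difference between models. Values of a few units lie at the depth limit of the tumour libraries.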
